A study of Homo sapiens with 24 samples.

Results

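Hs578T and HCC70 are human triple-negative breast cancer lines, established from tumours that lack oestrogen receptor, progesterone receptor and HER2 amplification. Hs578T is usually described as mesenchymal and HCC70 as basal-like epithelial. The data compared here are the sorted non-BCSC libraries of both lines, 3 of Hs578T and 3 of HCC70, which are 6 of the 24 libraries of the series. They were taken by their labels (cell line, and sorted non-BCSC as treatment). Earlier results of these data were known when the contrast was chosen. All 6 are labelled as wild type. BCSCs, breast cancer stem-like cells, were the CD24-CD44+ and ALDH+ cells of a fluorescence sort, and non-BCSCs were the cells with neither phenotype. Hs578T cells were grown in DMEM and carry batch label 1, and HCC70 cells were grown in RPMI medium and carry batch label 2. Each line also has a table of its own. The line therefore cannot be told apart from batch, medium, table and sort, and each line is 1 culture model. For that reason a gene was called only when its groups differed by at least 4-fold, as 2 on the log2 scale, with a limma adjusted p under 0.05.

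Epithelial cells are held together by E-cadherin, claudins and desmosomes and carry a keratin network. Mesenchymal cells lack most of these contacts, build their filaments from vimentin and secrete a matrix of fibronectin and fibrillar collagens. The passage from one state to the other, epithelial-mesenchymal transition (EMT), is driven by ZEB, SNAIL and TWIST factors. Of these, the ZEB and SNAIL repressors bind CAGGTG-type E-boxes in epithelial promoters. The passage is opposed by factors such as GRHL2, OVOL1 and ESRP1. The lines compared here are often used as examples of the opposite ends of this range.

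Expression is given in TPM, the share of transcripts scaled by gene length and to a total of 1000000 per library, so that levels may be compared between genes. Where 3 values stand for a line, they are its libraries in the order of their replicate numbers. Differences are Hs578T minus HCC70 on the log2(TPM + 1) scale unless stated otherwise, so a positive value is higher in Hs578T, and the added 1 understates the difference of genes near 0. Recovered reads amounted to 28403151 to 33080155 per Hs578T library and 24984030 to 31962020 per HCC70 library. Of 17148 genes in both tables, 13713 had a mean of at least 1 TPM and were tested. Spearman correlations between libraries were 0.993 to 0.9975 within a line and 0.681 to 0.686 between the lines. Short RNAs took 14.89% to 16.73% of the TPM in Hs578T and 15.5% to 16.76% in HCC70.

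The 4 markers used to describe the contrast lay far apart in the lines. FN1, fibronectin (GRCh38 chr2:215360440-215436073, minus strand), was at 7976, 8157 and 8139 TPM in Hs578T and 7.03, 7.54 and 7.67 TPM in HCC70. Its difference was 9.91 (SE 0.05, limma adjusted p = 1.08e-11), and FN1 was among the most abundant messenger RNAs of Hs578T. VIM, vimentin (chr10:17228241-17237593, plus strand), was at 3700, 3737 and 3661 TPM in Hs578T and 6.65, 5.88 and 6.16 TPM in HCC70, a difference of 9.00 (SE 0.054, limma adjusted p = 1.2e-11). The exons of VIM overlap those of VIM-AS1 on the other strand, and whether the reads were counted by strand is not given in the sources used here. CDH1, E-cadherin (chr16:68737292-68835537, plus strand), was at 0.0534, 0.0159 and 0 TPM in Hs578T and 459.7, 486 and 508 TPM in HCC70. The Hs578T values of CDH1 come from at most 3 reads in a library, and the difference was -8.89 (SE 0.058, limma adjusted p = 1.6e-11). EPCAM, an epithelial adhesion molecule (chr2:47345158-47387601, plus strand), was at 0.0999, 0.445 and 0.292 TPM in Hs578T and 198, 182 and 195 TPM in HCC70, a difference of -7.24 (SE 0.10, limma adjusted p = 2.86e-10). No library of either line lay between the groups for any of the 4 genes. Of the wider marker sets, the mesenchymal genes CDH2, ZEB1 and SPARC and the epithelial genes KRT8 and CLDN7 took the same sides as these 4, and KRT18 did not separate the lines.

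**Figure D1:**
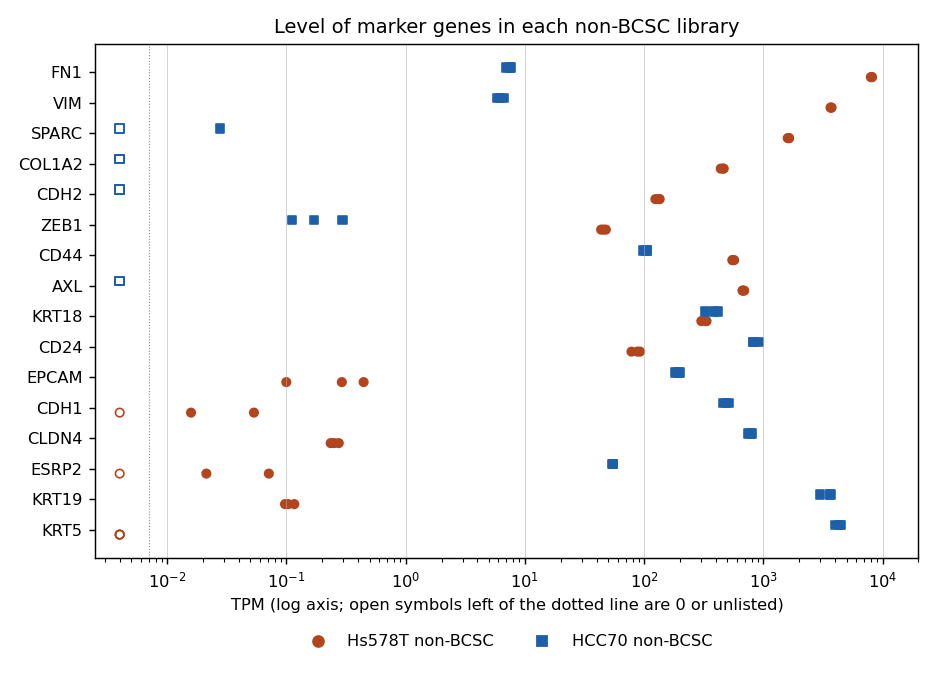
TPM of 16 epithelial, mesenchymal and sorting marker genes in each of the 3 Hs578T and 3 HCC70 non-BCSC libraries, on a log10 axis, 1 point per library; open symbols mark a gene with no read or not listed. FN1, VIM, SPARC, COL1A2, CDH2, ZEB1, CD44 and AXL lie higher in Hs578T, CDH1, EPCAM, CD24, CLDN4, ESRP2, KRT19 and KRT5 lie higher in HCC70, and the KRT18 points of the lines lie close together.

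Large differences were common across the transcriptome. Of the 13713 genes tested, 1127 (8.22%) were called higher in Hs578T and 1262 (9.2%) higher in HCC70, together 2389 (17.4%). The groups did not overlap for 11901 genes (86.8%), so that a lack of overlap alone says little about a gene. Without a minimum difference, 11784 genes (85.9%) had a limma adjusted p under 0.05. Counts of list members with no minimum, given below, are therefore to be read beside that share. Where these counts are split by direction they use an unadjusted p, a looser threshold than that of the share, so the comparison is rough. The median difference of all tested genes was -0.125, the median absolute difference 0.80 and the median SE 0.073, and differences of named genes are to be read relative to that median. Counts of list members below are read against the 8.22% and 9.2%. The lists were chosen with earlier results of these data known, so these counts describe the lists and are no independent test.

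The largest differences toward Hs578T were in matrix genes. COL6A3, a chain of collagen VI (chr2:237324003-237414328), was at 2743, 2830 and 2826 TPM in Hs578T and 0, 0 and 0.0146 TPM in HCC70, a difference of 11.44 (SE 0.044, limma adjusted p = 7.43e-12). SPARC, a collagen-binding glycoprotein, was at 1645, 1637 and 1601 TPM in Hs578T and 0.0277, 0 and 0 TPM in HCC70, with a difference of 10.66 (SE 0.046). THY1, a surface glycoprotein of fibroblasts and mesenchymal stromal cells, was at 542, 571 and 575 TPM in Hs578T and 0, 0 and 0.0325 TPM in HCC70. All 3 genes had between 0 and 2 reads in each HCC70 library. THBS1, thrombospondin 1, differed by 8.97, SERPINE2, a serine protease inhibitor, by 8.72, VCAN, the proteoglycan versican, by 8.66, TIMP3, a metalloproteinase inhibitor, by 8.61 and COL6A1 by 8.56. THBS1, SPARC, THY1 and VCAN share exon positions with genes on the other strand. LDHB, the B subunit of lactate dehydrogenase, was the 1 metabolic enzyme among the 12 largest, at 1233, 1177 and 1134 TPM in Hs578T and 1.61, 1.39 and 1.41 TPM in HCC70, a difference of 8.90 (SE 0.058, limma adjusted p = 1.6e-11).

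The largest differences toward HCC70 were in keratins, secreted epithelial proteins and epithelial surface proteins. RARRES1, a gene induced by retinoids, was at 0, 0 and 0.086 TPM in Hs578T and 3495, 3219 and 3285 TPM in HCC70, a difference of -11.66 (SE 0.058, limma adjusted p = 1.08e-11). RARRES1 shares exon positions with MFSD1 on the other strand. KRT19, a keratin of simple and glandular epithelia (chr17:41523617-41528308), was at 0.117, 0.104 and 0.0974 TPM in Hs578T and 3002, 3615 and 3671 TPM in HCC70, a difference of -11.59 (SE 0.081, limma adjusted p = 1.95e-11). KRT16 differed by -10.43, KRT4 by -10.04, S100P by -9.87, S100A14 by -9.86, AZGP1, a secreted glycoprotein of glandular epithelia, by -9.83, SPINT2, an inhibitor of membrane serine proteases, by -9.67, MAL2, a protein of apical transport, by -9.59 and CLDN4, a tight junction claudin, by -9.28. HIST1H1B, also among the 12 largest, encodes a linker histone whose messenger normally lacks a poly-A tail, and was at 0, 0 and 0.0907 TPM in Hs578T and 1215, 1325 and 1238 TPM in HCC70.

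A further set of genes was listed in only 1 of the tables, which holds for a gene with no read in any library of the other table. Of these genes, 139 had a mean of at least 10 TPM in Hs578T non-BCSCs and 93 in HCC70 non-BCSCs, and 13 and 16 had at least 100 TPM. No difference was fitted for them, and the bounds below set 3 reads per library as the most that 0 reads allow, which covers counting error only. The Hs578T-only gene of highest mean was IGFBP7, a secreted matrix-associated protein, at 968 ± 43 TPM (SD, n = 3), at least 4787-fold higher than in HCC70. AXL, a receptor tyrosine kinase linked to mesenchymal states, was at 678 ± 11.8 TPM and at least 12060-fold higher. ITGA11, a collagen-binding integrin chain, was at 474 ± 18.4 TPM and at least 8907-fold higher. COL1A2, a chain of collagen I, was at least 9242-fold higher and LUM, the proteoglycan lumican, at least 3055-fold. On the HCC70 side the gene of highest mean was KRT5, the basal keratin (chr12:52514575-52520530), at 4286 ± 240.2 TPM (SD, n = 3), at least 42220-fold higher than in Hs578T. SLPI, a secreted protease inhibitor, was at 1881 ± 139.9 TPM and at least 4812-fold higher. TCN1, a cobalamin carrier, was at least 7898-fold higher, S100A9 at least 2687-fold and CEACAM6, a surface adhesion glycoprotein, at least 8565-fold. IGFBP7 and AXL share exon positions with genes on the other strand.

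Every tested gene of the epithelial junctions was called higher in HCC70, by limma and by voom, which is limma's fit to the recovered reads. The list held 26 genes, of which 22 were tested and 22 were called, with a median difference of -5.29, against 9.2% of all tested genes and a median of -0.125. The other 4, CLDN3, MARVELD3, DSG3 and PKP1, were listed only for HCC70. The summed level of the list was 97.57 to 101.0 TPM in Hs578T and 5388 to 5409 TPM in HCC70. Among tight junction genes, CLDN4 was at 0.235, 0.251 and 0.275 TPM in Hs578T and 806, 791 and 746 TPM in HCC70 and CLDN7 at 0.042, 0.0374 and 0.035 TPM in Hs578T and 314, 339 and 305 TPM in HCC70. F11R, the junctional adhesion molecule A, was not near 0 in Hs578T, at 4.85, 5 and 5.33 TPM in Hs578T and 328, 359 and 381 TPM in HCC70, a difference of -5.88 (SE 0.068). Desmosomal genes had the highest levels of the list in Hs578T. DSP, desmoplakin, was at 27.2, 26.1 and 25.6 TPM in Hs578T and 972, 959 and 1041 TPM in HCC70, and DSG2, desmoglein 2, at 32.5, 31.1 and 28.9 TPM in Hs578T and 289.8, 272 and 265 TPM in HCC70. The smallest difference of the list was that of PKP3, plakophilin 3, at -2.83 (SE 0.062). CDH3, P-cadherin of basal cells, was at 0.0401, 0 and 0 TPM in Hs578T and 283, 326 and 311 TPM in HCC70, a difference of -8.24 (SE 0.067, limma adjusted p = 3.43e-11).

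The factors that maintain the epithelial state and their known targets followed the same direction without exception among those tested. Of 20 such genes 16 were tested and 16 were called higher in HCC70, with a median of -6.60. ESRP1 and ESRP2, splicing factors of epithelial isoforms, were at 2.46, 2.01 and 2.11 TPM in Hs578T and 242, 234 and 236 TPM in HCC70 and at 0.0213, 0 and 0.0713 TPM in Hs578T and 54.1, 55.1 and 55 TPM in HCC70. Some ESRP1 expression thus remained in Hs578T, while ESRP2 was near 0. GRHL2, a grainyhead factor that activates CDH1 and claudin genes, was at 0.0492, 0.0146 and 0.0274 TPM in Hs578T and 86.2, 88.2 and 94.4 TPM in HCC70, and its relative GRHL1 at 5.21, 5.42 and 5.37 TPM in Hs578T and 81, 75.8 and 79.9 TPM in HCC70. ELF3, an ETS factor of epithelia, had no read in the Hs578T libraries and 478 ± 59.1 TPM (SD, n = 3) in HCC70, at least 6643-fold higher. OVOL1 and OVOL2, zinc-finger repressors of EMT, were listed only for HCC70, at means of 10.7 and 14.6 TPM. The serine protease ST14 and its inhibitors SPINT1 and SPINT2 were near 0 in Hs578T, at means of 0.0145, 0.0227 and 0.244 TPM, and at 174, 324 and 1012 TPM in HCC70. TP63 and ELF5, factors of the basal and luminal progenitor lineages, were under 1 TPM in all 6 libraries and were not tested.

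The E-box CAGGTG was in a larger share of these genes' promoters than of all promoters searched, though most of them lacked it. Printed here are 3 promoters, because they hold the most copies among the junction and regulator genes. The 250 bases before each RefSeq start site (GRCh38.p14) were searched for CAGGTG on both strands, its reverse complement being CACCTG. It was found in 6143 of 35116 promoters (17.5%) and in 15.8% of the promoters of tested genes. Among promoters of genes called higher in HCC70 it was in 360 of 1411 (25.5%), and among those of genes called higher in Hs578T in 158 of 1181 (13.4%). The median G and C content was 63.6% in both of the last sets. Of 21 promoters of 16 junction genes 9 held it, as did 7 of 16 promoters of 11 regulator genes and 1 of 4 keratin promoters. The 7 include both overlapping promoters of MUC1, which hold the same E-boxes. The regulator promoters include those of TP63 and ELF5, which were not tested for expression. No promoter was available for the other genes of these lists, nor for CDH1 and EPCAM. The table also holds CLDN4, whose promoter has none. A match is a description of these letters only. The sequences run 5′ to 3′ along the gene's strand and end at the base before the start site, with the E-boxes in capitals.
CRB3: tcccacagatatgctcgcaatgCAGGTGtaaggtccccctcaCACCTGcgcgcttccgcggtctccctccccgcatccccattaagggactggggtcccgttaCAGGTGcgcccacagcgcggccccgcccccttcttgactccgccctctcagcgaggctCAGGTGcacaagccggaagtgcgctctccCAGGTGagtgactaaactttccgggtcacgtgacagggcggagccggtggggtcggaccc
CLDN7: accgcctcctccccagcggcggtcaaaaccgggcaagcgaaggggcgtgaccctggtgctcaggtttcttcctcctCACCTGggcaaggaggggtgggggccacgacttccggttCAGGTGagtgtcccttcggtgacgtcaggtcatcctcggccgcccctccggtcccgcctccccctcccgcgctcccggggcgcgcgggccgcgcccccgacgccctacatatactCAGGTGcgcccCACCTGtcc
AP1M2: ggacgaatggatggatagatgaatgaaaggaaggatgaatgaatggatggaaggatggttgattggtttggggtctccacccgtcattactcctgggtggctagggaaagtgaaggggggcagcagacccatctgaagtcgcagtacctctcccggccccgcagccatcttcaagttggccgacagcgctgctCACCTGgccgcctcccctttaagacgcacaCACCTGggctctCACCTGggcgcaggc
The printed promoter of CRB3, a polarity protein of the apical membrane, spans chr19:6464021-6464270 on the plus strand, with 5 copies. CRB3 was at 0.0776, 0.069 and 0.13 TPM in Hs578T and 15.5, 12.8 and 11.7 TPM in HCC70. The promoter of CLDN7 spans chr17:7262479-7262728 on the minus strand, with 4 copies in these bases and none in the promoter of its other RefSeq start. The promoter of AP1M2, a subunit of the epithelial sorting adaptor AP-1B, spans chr19:10587313-10587562 on the minus strand, with 3 copies, all within the last 57 bases. AP1M2 was at 2.25, 2.31 and 3.15 TPM in Hs578T and 232, 301 and 303 TPM in HCC70. All 3 genes were called higher in HCC70, with differences of -3.71, -8.27 and -6.29.

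The EMT transcription factors, among them the repressors that bind such E-boxes, did not all take the same side. Of 13 EMT transcription factors 7 were tested, 4 were called higher in Hs578T (8.22% of all tested genes were) and 1 higher in HCC70. ZEB1 was at 47.8, 45.7 and 43.6 TPM in Hs578T and 0.295, 0.112 and 0.171 TPM in HCC70, a difference of 5.29 (SE 0.078, limma adjusted p = 3.76e-10), and ZEB2 at 17.9, 17.9 and 16.2 TPM in Hs578T and 0.0767, 0.0688 and 0.12 TPM in HCC70, a difference of 4.07. TWIST1 was listed only for Hs578T at 25.9 ± 1.5 TPM (SD, n = 3), at least 162-fold higher, and TWIST2 at 6.05 ± 0.222 TPM. PRRX1, a homeobox factor of mesenchyme, was at 140.4 ± 6.14 TPM and at least 2147-fold higher in Hs578T. The SNAIL family was expressed in both lines. SNAI2 was at 90.1, 92 and 87.7 TPM in Hs578T and 30, 28.6 and 27.8 TPM in HCC70, a difference of 1.61 (SE 0.051), and SNAI1 was lower in Hs578T, at 2.26, 2.64 and 2.98 TPM in Hs578T and 7.04, 9.04 and 7.99 TPM in HCC70, a difference of -1.31 (SE 0.11), so neither reached the 4-fold minimum. FOXQ1, a forkhead factor, was called in the opposite direction, at 0.37, 0.659 and 0.432 TPM in Hs578T and 37.3, 31.9 and 31.5 TPM in HCC70. HMGA2, an architectural chromatin protein of embryonic tissue, was listed only for Hs578T at 27.9 ± 1.38 TPM. The median of the tested members was 2.98, and 3.94 with TCF4, which had no HCC70 read, placed at its bound.

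Cytoskeletal genes gave a mixed picture around vimentin. Of 13 mesenchymal adhesion and cytoskeleton genes tested, 7 were called higher in Hs578T (8 by voom) and 0 higher in HCC70 by limma or voom, with a median of 2.25. Without the minimum difference, at an unadjusted limma p under 0.05, 11 were higher in Hs578T and 2 in HCC70. CDH2, N-cadherin, was listed only for Hs578T at 131 ± 5.79 TPM (SD, n = 3), at least 2149-fold higher, and CDH11 at 199.5 ± 7.2 TPM, at least 2733-fold higher. MYL9, a myosin light chain, was at 315, 332 and 337 TPM in Hs578T and 0.996, 1.86 and 2.41 TPM in HCC70, and CALD1, caldesmon, at 195, 192 and 178 TPM in Hs578T and 2.52, 2.28 and 2.21 TPM in HCC70. By contrast S100A4, often called fibroblast-specific protein, was at 159 ± 9.14 TPM in Hs578T and 238 ± 30.1 TPM in HCC70 (SD, n = 3 each), a difference of -0.57 (SE 0.097). The caveolins did not share a direction, with CAV1 at 1.36 and CAV2 at -1.56. The tropomyosins TPM1 and TPM2 were abundant in both lines, with HCC70 means of 122 and 252 TPM.

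The keratins split into a large HCC70 set and an exception. Of 18 keratin genes 10 were tested, 8 were called higher in HCC70 and 0 higher in Hs578T by limma or voom (1 at an unadjusted limma p under 0.05 with no minimum), with a median of -6.41, and KRT5, KRT6A, KRT6B and KRT23 were listed only for HCC70. Their summed level was 343.1 to 374.9 TPM in Hs578T and 12310 to 14250 TPM in HCC70. KRT18, the simple-epithelial partner of KRT8, was at 302, 334 and 329.7 TPM in Hs578T and 324, 388 and 416 TPM in HCC70, a difference of -0.22 (SE 0.096, limma adjusted p = 0.0634), and its groups overlapped. KRT18 thus made up most of the keratin TPM of Hs578T. KRT8 was at 17.7, 15.5 and 17.2 TPM in Hs578T and 348, 369.5 and 356 TPM in HCC70, a difference of -4.34 (SE 0.061, limma adjusted p = 3.07e-10). KRT80 was higher in Hs578T by 1.29 (SE 0.067), short of the minimum. Within HCC70, the levels ran from KRT5 at 4286 TPM and KRT19 at 3429 TPM through KRT16, KRT4 and KRT7 to KRT15 at 68.3 TPM, so basal, simple and stratified keratins were all present. KRT14, KRT16 and KRT17 are close relatives, as are KRT6A and KRT6B, and reads may be divided between them.

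Collagens were the counterpart on the Hs578T side. Of 22 collagen genes tested, 17 were called higher in Hs578T and 1, COL9A2, higher in HCC70, with a median of 5.75, or 6.66 with genes at 0 placed at their bounds. The summed collagen level was 6300 to 6593 TPM in Hs578T and 104.6 to 116.1 TPM in HCC70. COL3A1, a fibrillar collagen (chr2:188974373-189012746), was at 757, 781 and 784 TPM in Hs578T and 0 in every library TPM in HCC70, at least 15950-fold higher in Hs578T. COL1A1 was at 374, 398 and 431 TPM in Hs578T and 6.33, 7.01 and 6.4 TPM in HCC70, a difference of 5.73 (SE 0.068, limma adjusted p = 1.34e-10). COL4A1 and COL4A2, the basement membrane pair, differed by 7.53 and 7.16, and COL5A1 by 7.32. COL4A5, a further collagen IV chain, was at 48.8, 51.4 and 49 TPM in Hs578T and 31.8, 35.7 and 38.8 TPM in HCC70, a difference of 0.48 (SE 0.075). Its partner COL4A6 was at 3.13, 3.32 and 3.68 TPM in Hs578T and 0.204, 0.288 and 0.24 TPM in HCC70, a difference of 1.81 (SE 0.081), short of the minimum but past it with a pseudocount of 0.1, at 3.34, and by voom, at 3.90. COL18A1, the endostatin precursor, was higher in HCC70 by less than the minimum, at -0.78 (SE 0.12).

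Proteins that bind or cross-link the matrix moved with the collagens. Of 18 tested, 15 were called higher in Hs578T and 1, FBLN2, higher in HCC70, with a median of 4.91, and their summed level was 17140 to 17400 TPM against 347.7 to 383.3 TPM. TGFBI, a TGF-β-induced matrix protein, was at 3669, 3771 and 3724 TPM in Hs578T and 179, 201 and 202 TPM in HCC70, a difference of 4.26 (SE 0.064). LOXL2, a collagen cross-linking oxidase, was at 438, 454 and 484 TPM in Hs578T and 4.8, 5.57 and 5.07 TPM in HCC70, a difference of 6.23, and CCN2, a matricellular growth factor that the tables name CTGF, at 201, 196 and 192 TPM in Hs578T and 3.09, 2.74 and 2.56 TPM in HCC70, a difference of 5.70. Fibulin 1 and tenascin C were shared by both lines. FBLN1 differed by 0.31 (SE 0.075) and TNC by 1.60 (SE 0.076). POSTN, periostin, and DCN, decorin, were listed only for Hs578T at means of 92.9 and 82.1 TPM.

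Matrix proteases and their inhibitors were called in both directions. Of 17 tested, 8 were called higher in Hs578T and 6 higher in HCC70. MMP2, gelatinase A, was at 338, 353 and 353 TPM in Hs578T and 1.78, 2.16 and 2.05 TPM in HCC70. MMP7, matrilysin, was the opposite, at 1.15, 0.682 and 1.34 TPM in Hs578T and 360.1, 323 and 309 TPM in HCC70, a difference of -7.34 (SE 0.12). The other HCC70 calls were the 5 tested kallikreins KLK5, KLK6, KLK7, KLK8 and KLK10, neighbouring genes on chromosome 19, with differences from -6.90 for KLK5 to -2.19 for KLK6. MMP14 was at 122, 126 and 129 TPM in Hs578T and 62.7, 71.6 and 72.1 TPM in HCC70, a difference of 0.86 (SE 0.066), short of the minimum. TIMP2 was just inside the minimum, at 2.01.

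Integrin and laminin chains divided between the lines. Of 24 tested, 6 were called higher in Hs578T and 5 higher in HCC70, and the median was 0.53. Among the HCC70 calls were the epithelial chains ITGB4, ITGB6, ITGB8 and LAMA3. ITGB6 was at 0.501, 0.51 and 0.239 TPM in Hs578T and 219, 219 and 229 TPM in HCC70, and LAMA3, a laminin-332 chain, at 3.14, 3.52 and 3.18 TPM in Hs578T and 70.7, 68.5 and 74.3 TPM in HCC70. The Hs578T calls were ITGA3, ITGA4, ITGA5, ITGB3, LAMA2 and LAMB1. ITGA5, the fibronectin receptor chain, was at 428, 466 and 462 TPM in Hs578T and 47.1, 57.2 and 58 TPM in HCC70, and LAMB1 at 235, 237 and 238 TPM in Hs578T and 3.08, 2.87 and 3.5 TPM in HCC70. The shared partners differed little. ITGB1 differed by 0.68 (SE 0.062), and ITGAV by 0.12 (SE 0.063, limma adjusted p = 0.119).

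**Figure D2:**
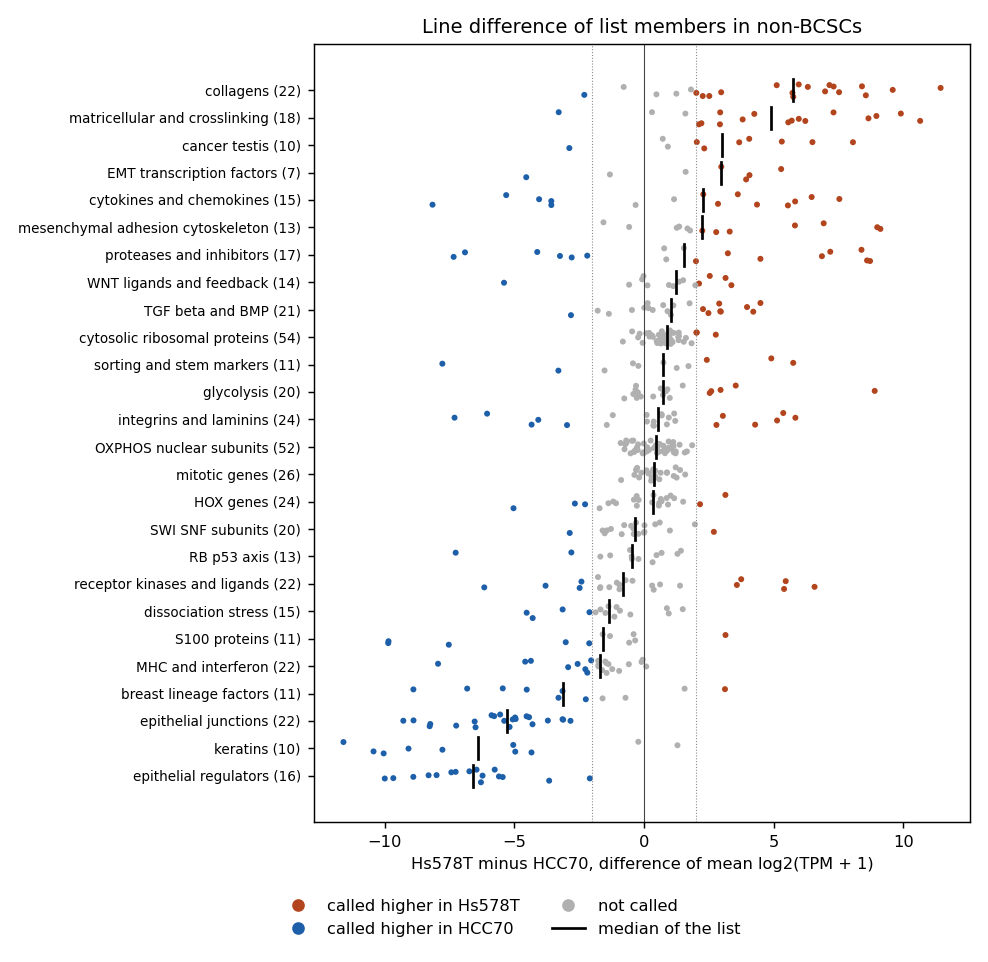
Difference between Hs578T and HCC70 non-BCSCs on the log2(TPM + 1) scale for each tested member of each gene list with at least 5 tested genes, 1 point per gene, coloured by call, with a bar at the list's median and dotted lines at the minimum difference of 2 in each direction. Junction and epithelial regulator genes all lie left of the lower line, collagen genes reach from -2.30 to 11.44, and genes of mitosis and of oxidative phosphorylation lie between the lines.

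Receptor kinases differed member by member. Of 22 receptors and ligands tested, 5 were called higher in Hs578T and 4 higher in HCC70. PDGFRA and PDGFRB, the platelet-derived growth factor receptors of mesenchymal cells, were at 209, 203 and 192 TPM in Hs578T and 3.72, 3.51 and 3.45 TPM in HCC70 and at 44.8, 45.7 and 47.3 TPM in Hs578T and 0.0869, 0.125 and 0.109 TPM in HCC70. DDR2 and DDR1, both collagen receptors, were called in opposite directions. DDR2 was at 141, 132 and 134 TPM in Hs578T and 0.429, 0.44 and 0.408 TPM in HCC70, and DDR1 at 9.22, 9.22 and 9.69 TPM in Hs578T and 55.3, 59.2 and 56.3 TPM in HCC70. ERBB3, a partner of HER2, was at 0.429, 0.542 and 0.359 TPM in Hs578T and 95.6, 104 and 107 TPM in HCC70, a difference of -6.16 (SE 0.073). EGFR was higher in HCC70 by less than the minimum, at 61, 61.8 and 61 TPM in Hs578T and 204, 202 and 195 TPM in HCC70, a difference of -1.69 (SE 0.045). The fibroblast growth factor receptors also split, with FGFR1 at 3.58 and FGFR2 at -2.41. KIT, a receptor of luminal progenitors, was at 0.0331, 0.0147 and 0.0138 TPM in Hs578T and 13.1, 13.5 and 13 TPM in HCC70. Among ligands, NRG1, FGF5 and GAS6, the ligand of AXL, were listed only for Hs578T, at 16.9, 19.1 and 12.1 TPM, and TGFA only for HCC70, at 36.4 TPM.

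Among breast lineage factors 11 were tested, 7 were called higher in HCC70 and 1 higher in Hs578T, with a median of -3.14. FOXA1, a pioneer factor of luminal cells, was at 1.78, 2.01 and 1.99 TPM in Hs578T and 74.2, 61.5 and 63.5 TPM in HCC70, and GATA3 at 2.63, 2.69 and 3.03 TPM in Hs578T and 34.1, 31.6 and 31.3 TPM in HCC70. FOXC1, a factor of basal-like tumours, was at 5.4, 4.47 and 4.88 TPM in Hs578T and 65.3, 54.5 and 52.1 TPM in HCC70, a difference of -3.30 (SE 0.098). EN1, a homeobox factor of basal-like tumours, was higher in Hs578T, at 2.4, 1.88 and 1.98 TPM in Hs578T and 0.067, 0 and 0.0526 TPM in HCC70, a difference of 1.57 (SE 0.092), short of the minimum but past it with a pseudocount of 0.1, at 4.00, and by voom, at 5.70. ID4, a helix-loop-helix inhibitor of basal mammary cells, had no read in Hs578T and 113 ± 14.6 TPM (SD, n = 3) in HCC70, at least 1866-fold higher. AGR2, an oestrogen-responsive disulphide isomerase, was at 0.0873, 0 and 0 TPM in Hs578T and 491, 489.9 and 484 TPM in HCC70. ESR1 was at 0.0492, 0.12 and 0.072 TPM in Hs578T and 2.44, 2.2 and 2.17 TPM in HCC70, a difference of -1.60, short of the minimum but past it with a pseudocount of 0.1, at -3.73, and by voom, at -4.65.

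The surface and enzyme markers of the sort themselves differed between the lines within the non-BCSC fraction. CD44 was at 569, 556 and 549.5 TPM in Hs578T and 105, 98.7 and 106 TPM in HCC70, a difference of 2.43 (SE 0.05, limma adjusted p = 2.1e-09). CD24 was at 92.4, 87.8 and 78.4 TPM in Hs578T and 912, 828 and 831 TPM in HCC70, a difference of -3.30 (SE 0.075, limma adjusted p = 3.66e-09), and the near-identical copies of CD24 in the genome make its level uncertain. By RNA, the non-BCSCs of the lines thus entered the comparison with opposite CD44 and CD24 levels. The sort read these markers as surface protein, and both lines were taken outside the CD24-CD44+ gate. By the paper's flow cytometry, most Hs578T cells but only a minority of HCC70 cells were CD24-CD44+. Non-BCSCs were thus a smaller part of Hs578T than of HCC70, and the fractions compared are not equal shares of their lines. ALDH1A1, an aldehyde dehydrogenase read by the ALDEFLUOR assay, was listed only for HCC70, at 331 ± 5.28 TPM (SD, n = 3) and at least 3350-fold higher. ALDH1A3, the other main isoform, was higher in Hs578T, at 296, 291 and 280.0 TPM in Hs578T and 84.6, 85.4 and 91.8 TPM in HCC70, by 1.72 (SE 0.053), which was short of the minimum. PROM1, the surface antigen CD133, was at 0, 0.106 and 0 TPM in Hs578T and 226, 224 and 227 TPM in HCC70, and NT5E, the ectonucleotidase CD73, at 65.9, 61.1 and 55.3 TPM in Hs578T and 0.195, 0.0877 and 0.134 TPM in HCC70. Of the 11 sorting and stem markers tested, 3 were called higher in Hs578T and 2 higher in HCC70. Among the stem factors, MYC differed by -0.42 (SE 0.066), and SOX2 and POU5F1 were under 1 TPM in all 6 libraries.

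Of 21 TGF-β and BMP genes tested, 8 were called higher in Hs578T and 1 higher in HCC70, with a median of 1.04. TGFB1, the main TGF-β ligand, was at 85.6, 88.8 and 97.1 TPM in Hs578T and 4.29, 3.69 and 3.79 TPM in HCC70, a difference of 4.22 (SE 0.073). TGFBR3, the co-receptor betaglycan, was at 16.1, 15.2 and 14.9 TPM in Hs578T and 0.0292, 0.0524 and 0.0458 TPM in HCC70, and SMAD7, an inhibitor induced by the pathway, at 37.7, 38.4 and 37.2 TPM in Hs578T and 5.62, 6.03 and 6.08 TPM in HCC70. The target of BMP signals ID1 was the HCC70 call, at 74.7, 69.8 and 63.6 TPM in Hs578T and 544, 455 and 485 TPM in HCC70, whereas ID3 differed by 0.01 (SE 0.093, limma adjusted p = 0.897). Of 14 WNT genes tested, 4 were called higher in Hs578T and 1 higher in HCC70. WNT5A, a non-canonical ligand, was at 214, 206 and 193 TPM in Hs578T and 49.7, 42.5 and 45.8 TPM in HCC70, and WNT11 at 0.579, 0.555 and 0.781 TPM in Hs578T and 66.9, 70.1 and 66.8 TPM in HCC70. AXIN2, a target of canonical WNT signals, differed by -0.07 (SE 0.072, limma adjusted p = 0.381).

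Secreted cytokines and chemokines were divided with few members in between. Of 15 tested, 8 were called higher in Hs578T, 5 higher in HCC70 and 2 neither. IL6 was at 48.7, 48.9 and 46.9 TPM in Hs578T and 0, 0.0753 and 0.0658 TPM in HCC70, a difference of 5.55 (SE 0.062), and CXCL8, which the tables name IL8, at 171, 162 and 144 TPM in Hs578T and 2.1, 1.78 and 1.55 TPM in HCC70. CXCL12, a chemokine of stromal cells, was at 193, 186 and 179 TPM in Hs578T and 0.0188, 0 and 0 TPM in HCC70, a difference of 7.54 (SE 0.056). TNFSF10, the death ligand TRAIL, was at 0.28, 0.299 and 0.257 TPM in Hs578T and 379, 348 and 365 TPM in HCC70, and CCL28, a mucosal chemokine, at 7.15, 7.3 and 6.76 TPM in Hs578T and 96.1, 91.2 and 97.9 TPM in HCC70. Inflammatory ligands were therefore present in both lines, with different members.

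Antigen presentation and interferon genes lay toward HCC70. Of 22 tested, 8 were called higher in HCC70 and 0 higher in Hs578T by limma or voom, with a median of -1.69. At an unadjusted limma p under 0.05 with no minimum, 19 were higher in HCC70 and 0 in Hs578T. In either direction, 85.9% of all tested genes had a limma adjusted p under 0.05. IFI27 was at 2.24, 2.69 and 1.87 TPM in Hs578T and 706, 835 and 865 TPM in HCC70, MX1, an antiviral GTPase, at 1.38, 1.4 and 1.55 TPM in Hs578T and 54.4, 58.4 and 59.8 TPM in HCC70 and OAS1, an RNA-sensing enzyme, at 1.03, 0.96 and 0.936 TPM in Hs578T and 39.3, 38.4 and 41.2 TPM in HCC70. HLA-B, a class I gene, differed by -2.26. IRF1, a factor that drives interferon targets, differed by -0.05 (SE 0.053, limma adjusted p = 0.41). ISG15 was at 29.8, 34.2 and 37.4 TPM in Hs578T and 159, 97.7 and 100.3 TPM in HCC70, with the first HCC70 library well above the other two. Of 11 S100 genes tested, 5 were called higher in HCC70 and 1, S100A3, higher in Hs578T. S100A8, which pairs with S100A9 as calprotectin, was at 0, 0 and 0.137 TPM in Hs578T and 190.1, 198 and 187 TPM in HCC70, and S100A6 at 3856, 4022 and 3788 TPM in Hs578T and 4451, 5190 and 5840 TPM in HCC70, a difference of -0.40 (SE 0.11).

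Cell cycle inhibitors of the CDKN2 locus were among the larger differences in growth control genes. Of 13 genes of the RB and p53 axis tested, 2 were called higher in HCC70 and 0 higher in Hs578T by limma or voom. At an unadjusted limma p under 0.05 with no minimum, 8 were higher in HCC70 and 5 in Hs578T. CDKN2A, which encodes p16 and ARF, was at 0.33, 0.257 and 0.172 TPM in Hs578T and 235, 196 and 152 TPM in HCC70, a difference of -7.26 (SE 0.15, limma adjusted p = 1.97e-09). Its neighbour CDKN2B was at 13.7, 12.8 and 12.6 TPM in Hs578T and 107, 89.4 and 93.9 TPM in HCC70, a difference of -2.80 (SE 0.076). RB1 differed by 0.49 (SE 0.083), within the minimum.

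Cancer-testis genes, which are silent in most adult tissue, were mostly an Hs578T feature. Of 10 tested, 7 were called higher in Hs578T and 1, MAGEA4, higher in HCC70, with a median of 3.00. MAGEC2 was at 399, 386 and 366 TPM in Hs578T and 0.249, 0.536 and 0.547 TPM in HCC70, a difference of 8.06 (SE 0.091), and MAGEA1 at 112, 115 and 110.5 TPM in Hs578T and 0.232, 0.209 and 0.319 TPM in HCC70. MAGEA3 was expressed in both lines, at 82.7, 89.4 and 83.4 TPM in Hs578T and 39.7, 44.3 and 49.8 TPM in HCC70, and reads of MAGEA3 and MAGEA6 may be divided between these close copies. HOX genes were called about as often as genes at large, at 20.8% of those tested against 17.4%. Of 24 tested, 2 were called higher in Hs578T, HOXA4 and HOXA9, and 3 higher in HCC70, HOXB2, HOXB7 and HOXC13, while voom called 4 in each direction. HOXB7 was at 0, 0 and 0.105 TPM in Hs578T and 33.5, 34.8 and 30.3 TPM in HCC70, and HOXA9 at 13.1, 12.4 and 11.3 TPM in Hs578T and 0.676, 0.39 and 0.454 TPM in HCC70. The median HOX difference was 0.34, and -0.39 where a mean of 5 TPM was required.

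The called glycolysis genes were all higher in Hs578T, whereas genes of oxidative phosphorylation and division rarely reached the minimum. Of 20 glycolysis genes tested, 5 (25%) were called higher in Hs578T, beside 8.22% of all tested genes, and 0 higher in HCC70 by limma or voom, namely LDHA, LDHB, PFKM, PFKP and ENO2 in limma. At an unadjusted limma p under 0.05 with no minimum, 13 were higher in Hs578T and 6 in HCC70. In either direction, 85.9% of all tested genes had a limma adjusted p under 0.05. LDHA was at 2351, 2293 and 2226 TPM in Hs578T and 382, 377 and 422 TPM in HCC70, a difference of 2.54 (SE 0.064), and PFKP, the platelet phosphofructokinase, at 328, 340.5 and 348 TPM in Hs578T and 41.3, 45 and 42.1 TPM in HCC70. LDHB was the more one-sided of the lactate dehydrogenase subunits. Of 52 nuclear genes of oxidative phosphorylation 0 were called by limma and 1 by voom, and the largest difference was 1.86 for NDUFS7. At an unadjusted limma p under 0.05 with no minimum, 31 were higher in Hs578T and 13 in HCC70. Of the 52, 44 had a limma adjusted p under 0.05, a share near that of all tested genes. Of 26 mitotic genes 0 were called by limma or voom. At an unadjusted limma p under 0.05 with no minimum, 17 were higher in Hs578T and 6 in HCC70. Of the 26, 23 had a limma adjusted p under 0.05, again near the share of all tested genes. The largest difference, 1.59 (SE 0.048), was that of KIF20A, the kinesin of cytokinesis. KIF20A was at 218, 218 and 214 TPM in Hs578T and 68.7, 74 and 71.4 TPM in HCC70. MKI67, the Ki-67 antigen, went the other way, at -0.88 (SE 0.059). Of 20 SWI/SNF subunits 1 was called in each direction. SMARCA2, an ATPase of the complex, was at 32.7, 33.7 and 32 TPM in Hs578T and 239, 236 and 261 TPM in HCC70, and SMARCD3 at 19.6, 19.9 and 19.9 TPM in Hs578T and 1.45, 2.69 and 2.64 TPM in HCC70. Of 54 cytosolic ribosomal protein genes 3 were called higher in Hs578T, with a median of 0.89, and processed copies make single ribosomal genes uncertain.

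Markers of other cell types and of handling were counted the same way. Of the immune markers, PTPRC and CD3E were near 0 in all 6 libraries, and 2 were tested. CD14, a lipopolysaccharide co-receptor, was called higher in HCC70, at 0.38, 0.127 and 0.278 TPM in Hs578T and 119, 114 and 94.8 TPM in HCC70, and CD68 was at 109, 111 and 118 TPM in Hs578T and 39.1, 49.5 and 47.6 TPM in HCC70. Of the endothelial markers 2 were tested, and they lay on opposite sides. ESAM was called higher in HCC70, at 1.47, 1.51 and 1.26 TPM in Hs578T and 12.8, 13.8 and 13 TPM in HCC70. PECAM1 was higher in Hs578T, at 3.62, 3.33 and 3.41 TPM in Hs578T and 0.134, 0.14 and 0.157 TPM in HCC70, a difference of 1.96 (SE 0.072), short of the minimum but past it under 5 alternatives, at 2.01 to 4.62. CDH5 and VWF were at most at means of 0.0449 and 0.165 TPM, in HCC70. No adipocyte marker reached the minimum. Of 15 genes induced by dissociation and stress, 4 were called higher in HCC70 and 0 higher in Hs578T by limma or voom, with a median of -1.37. At an unadjusted limma p under 0.05 with no minimum, 12 were higher in HCC70 and 3 in Hs578T. In either direction, 85.9% of all tested genes had a limma adjusted p under 0.05. FOS was at 22.7, 22.8 and 22.4 TPM in Hs578T and 575, 526 and 528 TPM in HCC70, and FOSB, ATF3 and ZFP36 differed by -4.29, -3.14 and -2.10. The summed level of the stress list was 1002 to 1015 TPM in Hs578T and 2077 to 2511 TPM in HCC70. Its part in the differences described above was not tested.

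The same contrast in the BCSC libraries, 3 per line, was made on other libraries, which share line, batch, medium and table with the non-BCSC libraries. Of 13664 genes tested there, 1134 (8.3%) were called higher in Hs578T and 1340 (9.81%) higher in HCC70, together 2474 (18.1%). Of the 1127 non-BCSC calls toward Hs578T 1031 were called the same way in BCSCs, which is 91.5% of the non-BCSC and 90.9% of the BCSC calls. Of the 1262 toward HCC70 1182 were, which is 93.7% and 88.2%. None of the non-BCSC calls, 0 of either direction, had the opposite sign in BCSCs. The BCSC differences were 9.68 for FN1, 9.27 for VIM, -9.07 for CDH1 and -7.43 for EPCAM. Across 13561 genes the differences of both fractions had a Pearson correlation of 0.988, a description across genes of the same lines and tables. Among 2386 called genes tested in both fractions the median absolute change of the difference was 0.17.

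**Figure D3:**
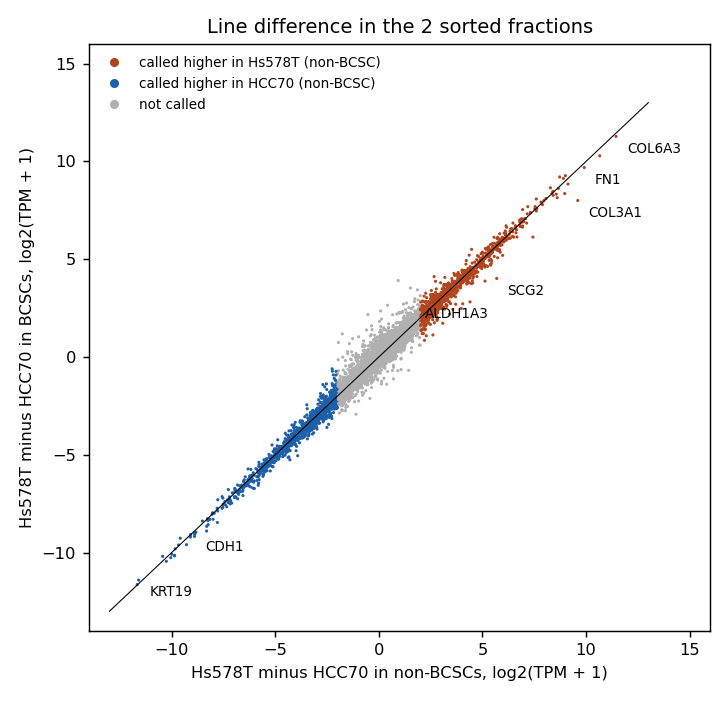
Difference between Hs578T and HCC70 on the log2(TPM + 1) scale in non-BCSCs (horizontal axis) and in BCSCs (vertical axis) for 13561 genes tested in both, 1 point per gene. The points follow the diagonal, and among called genes the largest departure is 1.67.

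The line difference itself differed between the fractions for a limited set of genes. The interaction term of limma was called for 1110 of 13705 genes (8.1%), and for 331 of the line-called genes. With a block per line and replicate number it was called for 408 genes, and for 152 of the line-called genes. The count without a block depended on single libraries. It fell to 440 without Hs578T non-BCSC library 2 and to between 512 and 715 without any 1 of 7 others. The 5 called genes with the smallest interaction p were all higher in Hs578T and less so in BCSCs. COL3A1 had a Hs578T mean of 774 ± 15 TPM among the non-BCSC libraries and of 256 ± 18.5 TPM among the BCSC libraries (SD, n = 3 each), an interaction of 1.60 (limma adjusted p = 1.86e-06). C7, complement component 7, went from 174 ± 7.66 TPM to 69.4 ± 3 TPM, an interaction of 1.30 (limma adjusted p = 5.02e-06). SCG2, secretogranin II of secretory granules, was at 53.7 ± 1.56 TPM and 15.5 ± 0.74 TPM, an interaction of 1.67. SCG5, a further granin, had an interaction of 1.58, and AGMO, an ether lipid monooxygenase, of 1.65. All 5 were under 1 TPM in both HCC70 fractions, so that their interaction rests on the Hs578T libraries. ALDH1A3 moved the other way, with a line difference of 1.72 in non-BCSCs and 2.83 in BCSCs (interaction -1.12, limma adjusted p = 1.32e-05). Its enzyme activity was among the properties used to sort, so this value is a description.

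Called genes were not spread evenly over the chromosomes. Positions (GRCh38, GENCODE) were found for 12390 genes, of which 9.08% were called higher in Hs578T or listed only for it at 10 TPM or more, and 9.94% the same for HCC70. On chromosome 8, 128 of 429 genes (29.8%) were higher in Hs578T and 7.46% higher in HCC70. This chromosome was singled out after its values were seen, and no test was made. In windows of 10 Mb with at least 20 genes, of which there were 228, the 4 highest shares toward Hs578T were the adjoining windows between 10 and 50 Mb of chromosome 8. The window from 20 to 30 Mb had 35 of 55 genes (63.6%) and a median difference of 2.22 in non-BCSCs and 2.11 in BCSCs. The next windows were 10 to 20 Mb with 14 of 23 (60.9%), 40 to 50 Mb with 15 of 26 (57.7%) and 30 to 40 Mb with 17 of 35 (48.6%), and the fifth, on another chromosome, had 31.8%. Of 16 runs of at least 4 genes higher in Hs578T that were neighbours among the placed genes, 11 lay on chromosome 8 and held 55 genes. The longest went from DLC1 to PDGFRL with 8 genes.

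The interval held genes of quite different roles. TUSC3, a subunit of the oligosaccharyltransferase, was at 140.0, 136 and 128 TPM in Hs578T and 0, 0 and 0.02 TPM in HCC70. VDAC3, a channel of the outer mitochondrial membrane, was at 287, 274 and 267 TPM in Hs578T and 39.4, 34.3 and 35.8 TPM in HCC70, a difference of 2.89 (SE 0.064). Members of the lists described above also lie there, among them LOXL2, BMP1, NRG1, FGFR1, SFRP1, PLAT and SNAI2. Their differences toward Hs578T thus fall in a region where most genes differed the same way. Several runs toward HCC70 consisted of members of 1 gene family or mostly so. Among them were KRT23 to KRT17 with 7 genes on chromosome 17, and KLK5 to KLK10, S100A11 to S100A7 and SERPINB5 to SERPINB2 with 5 genes each. Other runs, such as MR1 to NPL and CBWD1 to SMARCA2, were not of 1 family. Some windows leaned toward HCC70. From 180 to 190 Mb of chromosome 1, 11 of 30 genes (36.7%) were higher in HCC70. From 0 to 10 Mb of chromosome 9, which holds SMARCA2, 9 of 26 were (34.6%). The window from 150 to 160 Mb of chromosome 1, which holds S100A9 and S100A14, had 37 of 153 (24.2%), with a median of -1.33. These windows were not tested.

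**Figure D4:**
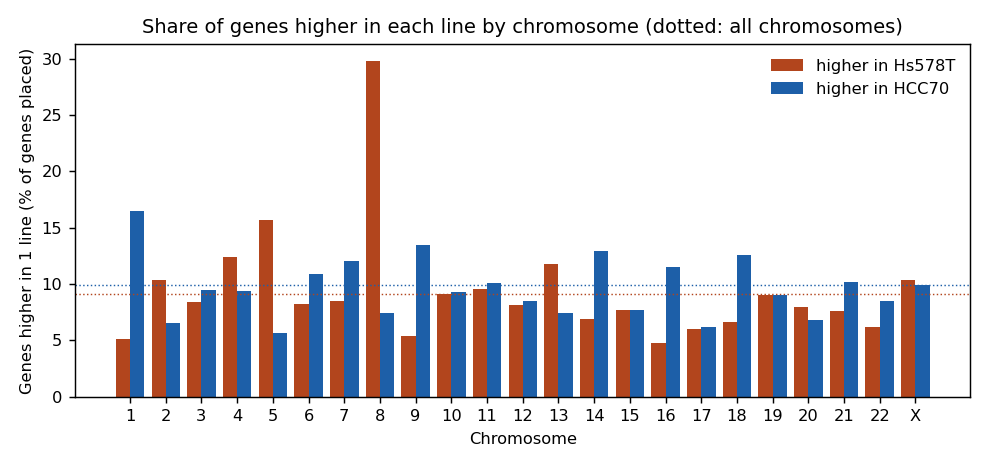
Percent of placed genes called higher in Hs578T or in HCC70 non-BCSCs, or listed only for that line, on each chromosome, with dotted lines at the overall shares of 9.08% and 9.94%. Chromosome 8 reaches 29.8% for Hs578T, and chromosome 1 reaches 16.5% for HCC70.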

How the data were processed

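RNA of sorted cells was extracted with on-column DNase treatment, selected for poly-A, made into stranded libraries and sequenced in read pairs, in biological triplicate per group as the labels state. The submitters' processing notes name HISAT2 2.0.5, featureCounts 1.5.0-p3 and GRCh38. The values are TPM as deposited by the authors, 1 table per line, and each column sums to 1000000. Whether reads were counted by strand is not given in the sources used here. Besides the genes marked above, CDH1, MAL2, SPINT2 and SCG5 share exon positions with genes on the other strand. COL3A1, LDHB, SPINT2, CEACAM6 and SCG5 share some with genes on the same strand.

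The tables were joined by gene name. The value of 1 read in a gene kept 1 ratio between the tables, and every value of the 17148 shared genes came back as a whole read number, within a relative tolerance of 2e-06 on that ratio, for 16409 (95.7%) at once and for 739 after a common divisor was put back (fraction terms of at most 60), so that depth and bounds could be computed. Genes listed in 1 table only were described without a test. limma 3.58.1 in R 4.3.3, with a trend in the prior variance, was fitted to log2(TPM + 1) of all shared genes whose mean reached 1 TPM, two-sided, with Benjamini-Hochberg adjustment over all genes tested. This was done for non-BCSCs, for BCSCs, and for the interaction of line and fraction over 12 libraries. An exact permutation test of 3 libraries against 3 cannot go below p = 0.1 and was not used. Each standard error and p rests on the spread between triplicates within a group, pooled over the groups and moderated by limma across genes. Each group is of 1 line, so this spread says nothing of other lines. Replicates differed by more than sampling noise, with a chi-square per degree of freedom of 2.09 to 16.9. This cannot tell biological from technical replicates, and that the triplicates are biological rests on the labels.

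Named genes were the 4 markers, the 12 largest called differences in each direction with separate groups and at least 10 TPM in the higher group, the 5 genes of highest mean listed for 1 line only, the 5 called genes with the smallest interaction p, and members of 29 gene lists by role and size; short RNAs were left out, and some genes that the rule takes are not reported here. Of 660 list genes 627 matched by name, 14 by an older name and 19 had no row. The contrast and the lists were chosen with earlier results of these data known. Alternatives were other minimums, pseudocounts and scalings, voom on the recovered reads, treat, a replicate block, each library left out, and genes of either table. The fits were tested on simulated data. Positions come from GENCODE and promoters from RefSeq.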

Additional observations from a re-analysis of the deposited data

Results flagged for a closer look

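In 11 named genes the line difference was not the same in non-BCSCs and BCSCs, by limma's interaction test with an adjusted p under 0.05 over all genes tested. The values below are the line difference in non-BCSCs minus that in BCSCs, on the log2(TPM + 1) scale, and all 11 genes kept the direction of their line difference in both fractions. The 5 chosen for the smallest interaction p were SCG2 at 1.67, AGMO at 1.65, COL3A1 at 1.6, SCG5 at 1.58 and C7 at 1.30. The others were among the largest line differences, and their shifts were small beside those: THBS1 at 0.61, TIMP3 at 0.47, SPARC at 0.37, CLDN4 at 0.32, THY1 at 0.28 and SERPINE2 at -0.48. For the matrix genes THBS1, TIMP3, SPARC and THY1 the difference was larger in non-BCSCs, and for SERPINE2 it was larger in BCSCs. CLDN4 was higher in HCC70 in both fractions and more so in BCSCs. The interaction was called for 8.1% of all genes tested.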

How the results depend on the processing

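All 479 alternative values of the 30 genes named as markers, largest differences or smallest interaction p kept their direction and their side of the threshold. The counts of line differences stayed within 1.5 times except where the minimum difference was lowered from 2 to 1, which gave 2531 genes higher in Hs578T and 3132 higher in HCC70 in non-BCSCs, and 2529 and 3311 in BCSCs. With each library left out in turn, non-BCSC calls ranged from 1119 to 1139 toward Hs578T and from 1253 to 1289 toward HCC70, and BCSC calls from 1110 to 1151 and from 1324 to 1358. In non-BCSCs a pseudocount of 0.1 gave 1435 and 1591 calls, voom 1533 and 1488, the genes of either file 1410 and 1420, and a minimum of 5 TPM 836 and 1020. Dividing by the median of ratios moved the median difference of all genes from -0.125 to 0 and the share of calls toward Hs578T from 47.2% to 50.8%.

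The interaction count was the least stable, at 1110 genes in all libraries and between 440 and 1414 with 1 left out. It fell to 643, 440 and 691 without Hs578T non-BCSC library 1, 2 and 3, 682 without the first HCC70 non-BCSC library, 519 and 569 without the first and second Hs578T BCSC library, and 512 and 715 without HCC70 BCSC library 1 and 3. The cause was not tested. Same-numbered non-BCSC libraries of the lines did not deviate together (correlations 0.0876, -0.049 and -0.0471). Nor did same-numbered non-BCSC and BCSC libraries within Hs578T (0.0713, -0.0747 and -0.0509) or HCC70 (0.0297, 0.158 and -0.101). These values gave no sign of pairing by number, but with 3 libraries per group they cannot exclude it. With the replicate number as a block, non-BCSC calls stayed at 1127 and 1262. The interaction count was 408 with a block per line and number, of which 389 were called without it. Of the 11 genes listed above for their interaction 8 were called with the block, and THY1, SERPINE2 and CLDN4 were not (limma adjusted p = 0.102, 0.0539 and 0.0577).

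Among list genes near the minimum, TIMP2, RPL26, RPS13, IFI44L, S100A11, ZFP36 and PAGE5 lost their call under at least 1 alternative, and 17 uncalled genes gained one. DKK1, DPF3 and PECAM1 gained it most often, and NDUFS7 did so at 2.27 without the first HCC70 library, at 2.02 after quantile normalization and at 2.11 by voom. A further 20 list genes, none of them called, changed sign under at least 1 alternative, among them AXIN2, ID3 and IRF1. The median of the HOX list changed sign at a minimum of 5 TPM. Line, batch label, medium and table cannot be told apart in any of these fits, and a gene with 0 reads is bounded only by 3 reads per library.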
